A study of Mus musculus with 27 samples.

Results

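B-cell lymphomas that arose in c-myc Igh transgenic mice were set against splenic B cells of healthy mice that had been driven into division in culture with lipopolysaccharide (LPS). The comparison took in all 19 lymphoma libraries and all 4 LPS libraries of a series of 27, and the libraries were chosen by their labels, not by measured values. The lymphomas were B220+ cells from the lung (12 libraries), mesenteric lymph nodes (4) or peripheral lymph nodes (3) of 3 mouse lines named hv, cr and co, whose names the labels do not explain. The labels put 7 lymphomas in the hv line, 7 in cr and 4 in co, and give 1 further lung lymphoma conflicting lines (hv in one label, CO in another). The LPS-treated cells were B220+ spleen cells after 2 days with LPS, in 1 library each from a wild-type (wt), hv, cr and co mouse, so that 3 of the 4 cultures carried a c-myc Igh transgene as the lymphomas did. The other 4 libraries, resting B220+ spleen cells of the same kinds of mice, are given only as a scale.

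LPS binds Toll-like receptor 4 on mouse B cells. It starts NF-kappaB signalling, cell growth and division, and part of the dividing cells go on to become IgM-secreting plasmablasts. Dividing B cells and MYC-driven lymphomas both make ribosomes, nucleotides and lipids for new cells, so the comparison asks in what a tumour differs from a normal B cell that is also dividing. The lymphomas were taken from lung and nodes and the LPS cells from spleen cultures, so malignancy, site and culture cannot be told apart. Nothing in the labels says that each library came from a separate mouse, and the p-values then measure the spread between libraries, which may be technical.

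The libraries held an estimated 11531400 to 23689600 read pairs in the lymphomas and 21748500 to 32032600 in the LPS cultures. B-cell identity was plain in both: the summed level of 10 B-cell markers was 1600 to 4326 TPM (transcript abundance scaled to a fixed total per library) in lymphomas and 1174 to 2306 TPM in LPS cultures. Of 10 macrophage markers tested 5 were called higher in lymphomas (5.27% of all genes), and of 7 erythroid markers 6 were called lower (8.56% of all genes). Without the wt, cr, co or hv culture these counts were 2, 4, 1 and 2 macrophage markers and 7, 4, 4 and 4 erythroid markers, and both were 0 without the libraries above 1% Gm10800. None of 5 fibroblast markers was called, but all 5 had an unadjusted p under 0.05 in limma and their median log2 fold change was 1.33. The summed macrophage markers reached 12.6 to 317 TPM in lymphomas and 5.79 to 55.2 TPM in LPS cultures, and the fibroblast markers 1.89 to 78.2 TPM in lymphomas and 1.45 to 3.50 TPM in LPS cultures. The lung epithelium markers reached 517 TPM in 1 lymphoma through Krt18 (0 to 510.5 TPM in lymphomas). The defining lung genes Sftpc, Sftpb and Scgb1a1 were at a median of 0 in lymphomas and at most at 0.558, 0.399 and 1.18 TPM there. The erythroid markers stood at 16.4 to 1132 TPM in lymphomas and 175 to 2219 TPM in LPS cultures. The cr LPS culture stood apart from the other LPS cultures, with 18.6% of its TPM in the repeat-like gene Gm10800. In bulk RNA, fewer cells of a type and less RNA per cell cannot be told apart. The part of these other cells and of the cr culture in the results was not tested beyond the fits without single libraries.

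Of 12880 genes tested, 1782 passed an adjusted p of 0.05 in limma on log2(TPM + 1), which was 13.8% of the genes. Of these, 679 (5.27%) were higher and 1103 (8.56%) lower in lymphomas. Tested genes had 1 TPM or more in at least 4 libraries, which the 4 LPS cultures alone could meet. They met it alone for genes near 0 in most lymphomas, such as Ccl22, Slc7a3 and Egln3. The split hung in part on this filter, at 686 higher and 985 lower with 5 TPM or more in at least 4 libraries. All 19 lymphomas lay on one side of all 4 LPS cultures for 430 genes (3.34%), above them for 166 (1.29%) and below them for 264 (2.05%). The median log2 fold change of all tested genes was 0.03. Among the called genes, 909 differed at least 2-fold, 366 of them higher and 543 lower in lymphomas. When each line's lymphomas were set against that line's own LPS culture, 1775 of the 1782 called genes (99.6%) kept one sign in hv, cr and co. The same lymphomas and the same hv, cr and co cultures had gone into the calls, so this agreement is no separate test. The number of calls hung on the small LPS group. It was 1103 without the wt culture, 1392 without cr, 835 without co and 821 without hv, and 433 without the 3 libraries above 1% Gm10800, which leaves 2 LPS cultures (wt and co).

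**Figure D1:**
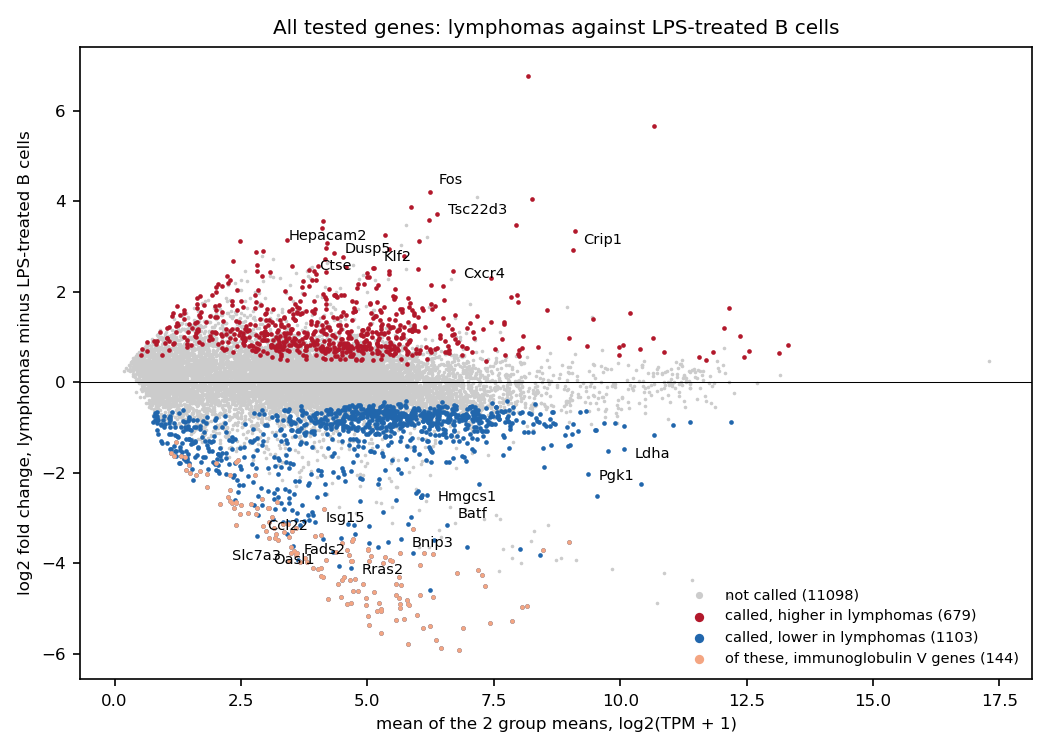
Log2 fold change (lymphomas minus LPS-treated B cells) against the mean level for each tested gene, coloured by the limma call. The 679 genes called higher and the 1103 called lower stand on either side of 0, and the 144 immunoglobulin V genes called lower are drawn in pale orange.

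The lymphomas were less varied than the LPS cultures in their antibody genes. Of 175 immunoglobulin V genes tested, which encode the antigen-binding parts of antibody chains, 144 (82.3%) fell and 0 rose in lymphomas, with a median log2 fold change of -3.65; by limma, 77 of 87 heavy chain V genes and 65 of 85 kappa V genes fell. V genes made up 13.1% of all genes called lower. The filter of 1 TPM or more in at least 4 libraries could be met by the 4 LPS cultures alone. A V gene leading in only a few lymphomas could hardly pass as higher, so these counts were largely set beforehand. They do not measure how varied the lymphomas were. In each library the leading V gene was then read out, a measure added after the values were seen. The leading Ighv gene held 26.7% to 99.9% of Ighv TPM in lymphomas (median 94.7%), against 6.31% in the wt, 12.5% in the hv, 31.3% in the cr and 4.98% in the co LPS culture. The leading Igkv gene held 20.2% to 98.6% in lymphomas (median 80.2%), against 7.196% in wt, 7.11% in hv, 40.9% in cr and 7.58% in co LPS cultures. One Ighv gene held over 50% in 17 of 19 lymphomas, and the same number of lymphomas had one Igkv gene over 50%. Ighv genes at 1 TPM or more numbered 1 to 78 in lymphomas (median 9) and 89 to 98 in LPS cultures, of 116 in the table. Their summed level was 1032 to 5738 TPM in lymphomas and 2186 to 6130 TPM in LPS cultures, so that the groups overlapped in total. The leading Ighv gene was one of 15 different genes across the 19 lymphomas. The cr culture was the LPS library with a leading V gene well above the others in both chains, Ighv1-55 and Igkv12-89. V genes resemble each other, and reads split between similar segments make single V gene values uncertain.

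Ighm, the mu heavy chain gene, has a secreted and a membrane form that end in different exons. The gene lies on chromosome 12, on the minus strand of GRCm38. Both transcripts share 1305 bases and then part. The secreted form reads on into 62 bases of its own coding sequence, stop codon included, at chr12:113420867-113420928. The membrane form splices to 2 exons between 113418826 and 113419068, with 125 coding bases that hold the transmembrane segment. The ends are shown from the GENCODE transcripts because the split between them carries the difference between the groups; lower case marks the last 24 shared bases and capitals the bases of one form alone.
Ighm secreted end: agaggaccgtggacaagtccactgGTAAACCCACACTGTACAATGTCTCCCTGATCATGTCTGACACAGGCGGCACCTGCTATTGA
Ighm membrane end: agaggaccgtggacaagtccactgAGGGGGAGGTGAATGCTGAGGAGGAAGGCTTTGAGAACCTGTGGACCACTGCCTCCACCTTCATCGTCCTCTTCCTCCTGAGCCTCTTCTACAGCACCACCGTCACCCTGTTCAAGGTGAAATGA

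Lymphomas made mostly the membrane form, and LPS cultures mostly the secreted form. The secreted form held 17.1% to 53.7% of Ighm TPM in lymphomas (median 28.4%), against 68.2% in the wt, 67.4% in the hv, 79.4% in the cr and 52.4% in the co LPS culture. In 18 of 19 lymphomas the share was below every LPS culture, and the other one, a mesenteric node cr lymphoma, lay just above the co culture. Resting cells held 19.0% to 26.8%. The mean share was 31.7% ± 10.4 in lymphomas (SD, n = 19) and 66.8% ± 11.1 in LPS cultures (SD, n = 4), a difference of -35.1 percentage points (exact two-sided permutation test, p = 2.3e-04, adjusted p = 0.00203 over 9 shares). The secreted transcript stood at 337 to 2506 TPM in lymphomas (median 807) and at 1488 to 3962 TPM in LPS cultures. The membrane transcript stood at 871 to 4066 TPM in lymphomas (median 2078) and at 1028 to 1798 TPM in LPS cultures. The difference was -32.3 points with node lymphomas alone (exact permutation, adjusted p = 0.0818) and -28.6 without the libraries above 1% Gm10800 (exact permutation, adjusted p = 0.0947).

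**Figure D2:**
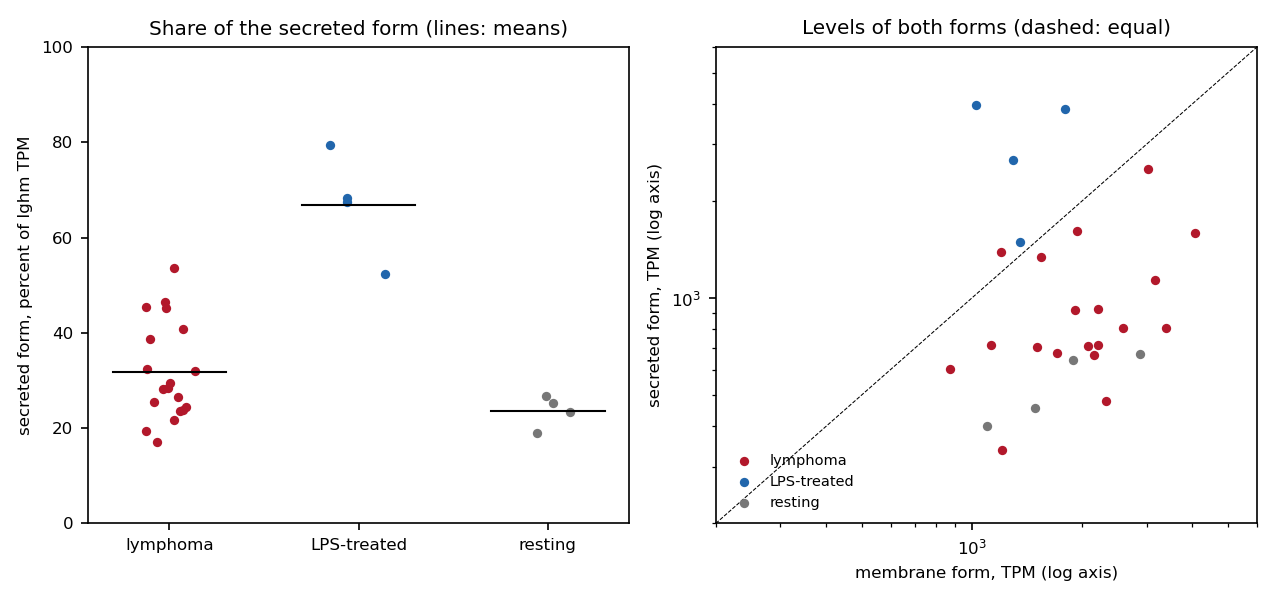
Left, percent of Ighm TPM in the secreted form for each library, with group means; right, level of the secreted against the membrane form on log axes, with equal levels on the dashed line. All 4 LPS cultures lie above the dashed line, and 18 of 19 lymphomas have a lower secreted share than every LPS culture.

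Ighm was the leading heavy chain constant gene in every library. It held 91.5% ± 6.21 of the summed heavy constant TPM in lymphomas (SD, n = 19) and 95.9% ± 0.638 in LPS cultures (SD, n = 4). Neither this share (exact permutation test, adjusted p = 0.43) nor those of Ighd and the IgG, IgE and IgA genes passed the test, with adjusted p up to 0.868. Ighd held 0.322% to 13.9% in lymphomas and 0.322% to 2.46% in LPS cultures. In 10 of 19 lymphomas its share was above every LPS culture.

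Some factors known from resting lymphocytes were higher in lymphomas than in LPS cultures. Of 20 quiescence factors tested, 8 rose and 0 fell (5.27% and 8.56% of all genes), 12 did not pass, and the list's median log2 fold change was 0.80. Tsc22d3 (GILZ), a glucocorticoid-induced leucine zipper protein, stood at 59.5 to 353 TPM in lymphomas (median 174), against 14.1 in the wt, 9.61 in the hv, 6.81 in the cr and 9.09 TPM in the co LPS culture. Klf2, a transcription factor of quiescent lymphocytes that controls trafficking, stood at 19.6 to 136 TPM in lymphomas (median 55.9), against 10.2 in wt, 7.98 in hv, 7.81 in cr and 5.94 TPM in co cultures. No lymphoma reached down to an LPS culture in either gene. The log2 fold changes were 3.71 ± 0.36 for Tsc22d3 (SE, limma adjusted p = 9.5e-08) and 2.53 ± 0.42 for Klf2 (SE, limma adjusted p = 0.00017). Resting cells stood at 265 to 668 TPM for Tsc22d3 and 127 to 335 TPM for Klf2, above most lymphomas. The other members that rose were S1pr1, Mxd4, Pik3ip1, Btg2, Foxo1 and Mxd1. Without 1 LPS culture, 5 or 6 of the 20 rose: the call of Btg2 was lost without any 1 of them, that of Foxo1 without cr, co or hv, and that of Mxd1 without wt, co or hv. Without the libraries above 1% Gm10800, 3 of the 20 rose.

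Among AP-1, EGR and other immediate early genes, which respond within minutes to receptor signals, 6 of 19 tested rose and 1 fell (5.27% and 8.56% of all genes). The list's median log2 fold change was 0.78. Fos, a subunit of the AP-1 factor, stood at 8.60 to 615 TPM in lymphomas (median 82.8), against 1.92 in the wt, 3.45 in the hv, 6.03 in the cr and 4.69 TPM in the co LPS culture. Every lymphoma was above every LPS culture although the lymphomas themselves spread widely, and the log2 fold change was 4.20 ± 0.77 (SE, limma adjusted p = 0.0006). Fosb rose by 3.40 on the log2 scale. Resting cells stood at 317 to 820 TPM for Fos and 61.2 to 154 TPM for Fosb, above most lymphomas. The others that rose were phosphatases that switch off MAP kinases: Dusp5, Dusp6, Dusp1 and Dusp2. Dusp5 stood at 5 to 112 TPM in lymphomas (median 29.998), against 1.84 in wt, 2.98 in hv, 4.19 in cr and 2.07 TPM in co cultures, with no overlap. Jun, Junb and Egr1 did not pass the test, at log2 fold changes of 0.74, 0.56 and 1.05. Ier3 was the member that fell, by 1.29. Without any 1 LPS culture, 4 of the 19 rose. The whole list summed to 346 to 1730 TPM in lymphomas, 226 to 365 TPM in LPS cultures and 1478 to 3448 TPM in resting cells. For Dusp5 resting cells stood at 8.29 to 19.0 TPM, below the median lymphoma.

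Of 18 homing receptors tested, 5 rose and 1 fell, where 5.27% and 8.56% of all genes did; 1 rose without the libraries above 1% Gm10800. Cxcr4, the receptor for the chemokine CXCL12, stood at 38.4 to 442 TPM in lymphomas (median 158), against 27.8 in the wt, 23.6 in the hv, 28.9 in the cr and 21.5 TPM in the co LPS culture. The log2 fold change was 2.45 ± 0.51 (SE, limma adjusted p = 0.00196), and the calls of Cxcr4 and S1pr1 were lost without the libraries above 1% Gm10800. S1pr1, which guides lymphocytes out of tissue, rose by 2.32, and the integrin chains Itgb7 and Itga4 rose by 2.16 and 1.37, the call of Itgb7 being lost without the wt, co or hv culture. Ccr6 fell by 1.82 on the log2 scale and lost its call without any 1 of the LPS cultures. Cxcr5, the receptor that leads B cells into follicles, had a log2 fold change of -2.32 but did not pass the test.

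Some genes stood higher in lymphomas than in both kinds of normal B cells. Hepacam2, a cell adhesion molecule of the immunoglobulin superfamily, stood at 32.4 to 209 TPM in lymphomas (median 62.3), against 4.91 in the wt, 8.27 in the hv, 11.9 in the cr and 7.90 TPM in the co LPS culture. Its log2 fold change was 2.95 ± 0.32 (SE, limma adjusted p = 6.8e-07), and resting cells stood at 7.198 to 14.1 TPM. Bhlhe41, a transcription repressor needed by B-1 cells in mice, stood at 30.5 to 144 TPM in lymphomas (median 55.9), against 5.22 in wt, 13.8 in hv, 20.1 in cr and 11.2 TPM in co cultures, and 7.29 to 16.4 TPM in resting cells. In both genes the lowest lymphoma was above the highest normal library. The same was true of Sspn, Diras2 and, against the LPS cultures, of Sorcs2 and Adssl1. Sspn (sarcospan) stood at 3.27 to 20.04 TPM in lymphomas, against 0.0723 in wt, 0.310 in hv, 0.645 in cr and 0.124 TPM in co cultures. Diras2, a small Ras-like GTPase, stood at 3.97 to 30.2 TPM in lymphomas and 0.368 to 1.89 TPM in LPS cultures. Crip1, a LIM-domain protein, was the most abundant of the genes named for their rise, at 177 to 2282 TPM in lymphomas (median 938) and 86.1 to 119 TPM in LPS cultures. Its rise was against the LPS cultures only: resting cells stood at 370 to 647 TPM, within the range of the lymphomas.

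**Figure D3:**
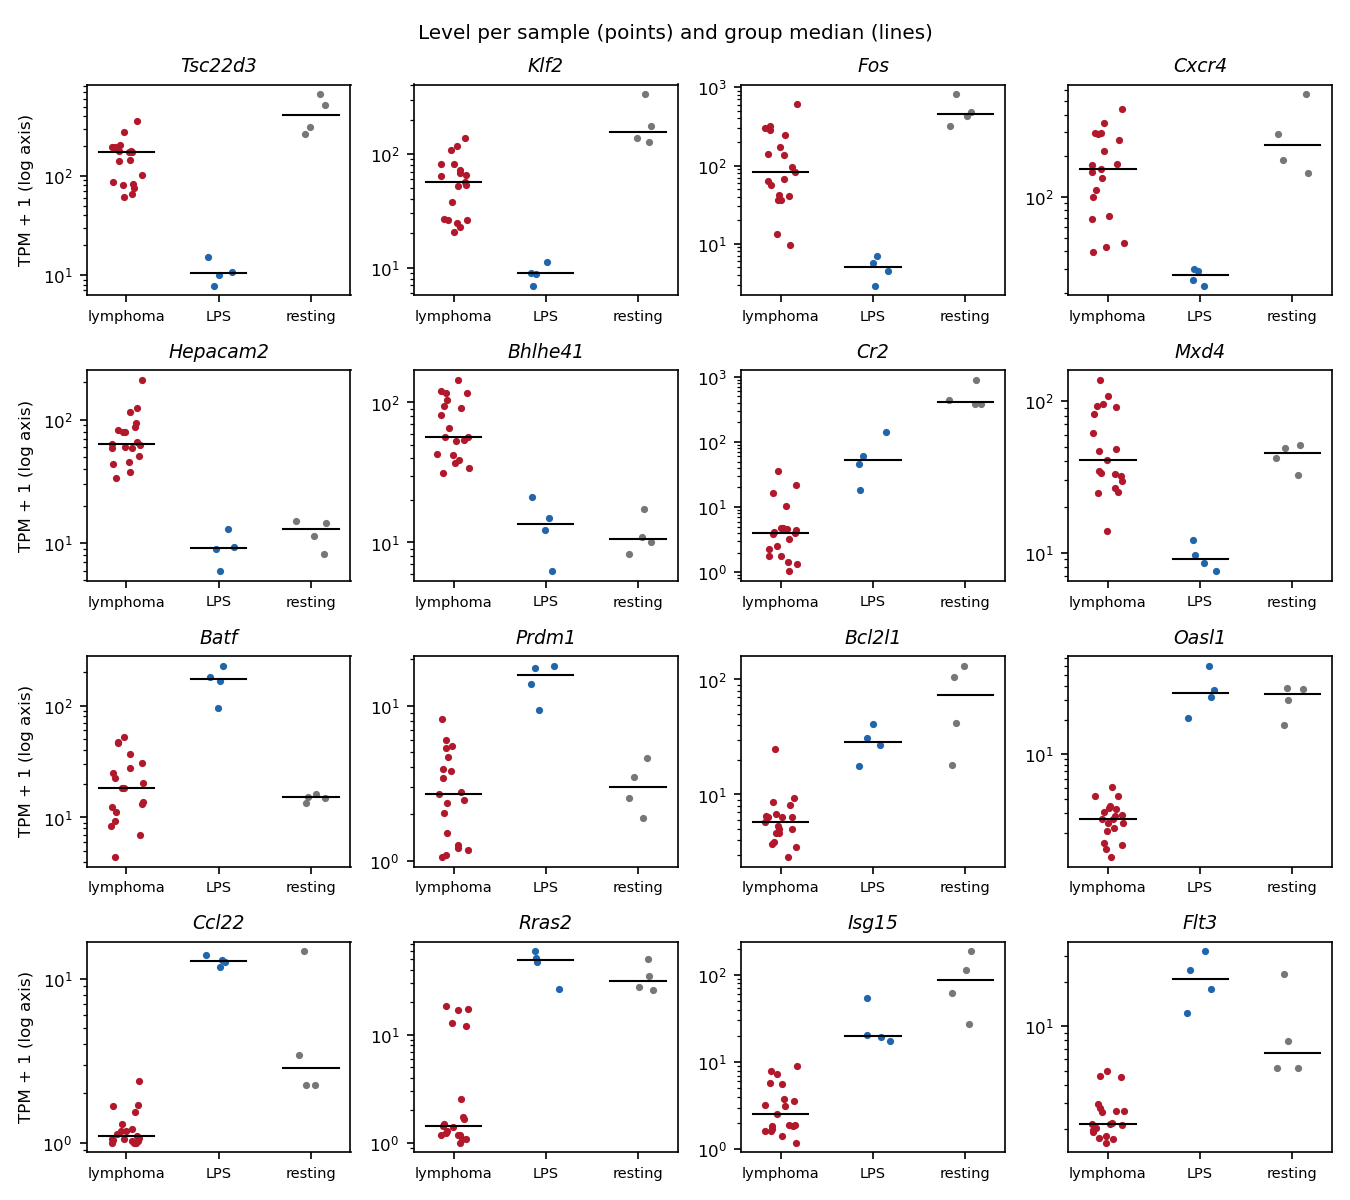
Level per library (TPM + 1, log axes) of 16 genes in lymphomas, LPS-treated and resting B cells, with group medians as lines. Hepacam2 and Bhlhe41 are above both normal groups in all 19 lymphomas, Tsc22d3, Klf2, Fos, Cxcr4 and Mxd4 are above the LPS cultures in all 19, and Batf, Prdm1, Oasl1, Ccl22, Rras2, Isg15 and Flt3 are below the LPS cultures in all 19.

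Calls among B-cell identity genes differed between lists. Of the 10 B-cell markers 5 rose and 0 fell (5.27% and 8.56% of all genes): Cd79a, Cd79b, Cd37, Blk and Fcrla. Between 1 and 2 of them rose when any 1 LPS culture was left out. Of 20 B-lineage transcription factors 3 rose and 2 fell, where 5.27% and 8.56% of all genes did. Without the cr, co or hv culture 0 rose, and without the wt, cr or hv culture 0 fell. Pax5, the factor that fixes B-cell identity, stood at 56.4 to 252 TPM in lymphomas (median 84.7), against 139 in the wt, 86.8 in the hv, 53.9 in the cr and 76.5 TPM in the co LPS culture, and did not pass the test (log2 fold change 0.17). Bach2, a repressor of plasma cell fate, rose by 1.503 on the log2 scale, and the call was lost without the cr, co or hv culture. Of 12 genes of MHC class II presentation, which show antigen to T cells, limma called 0 after adjustment and 2 had an unadjusted p under 0.05; the median log2 fold change was 0.38. In the B-cell receptor pathway 4 of 25 genes rose and 1 fell (5.27% and 8.56% of all genes). Without the wt, cr, co or hv culture 2, 1, 2 and 2 rose, and 1 rose without the libraries above 1% Gm10800. Inpp5d (SHIP1), a phosphatase that restrains receptor signals, stood at 113 to 230 TPM in lymphomas (median 163), against 86.4 in wt, 70.9 in hv, 68.9 in cr and 69.8 TPM in co cultures, with a log2 fold change of 1.20 ± 0.17 (SE, limma adjusted p = 3.1e-05). Rasgrp3, an activator of Ras, fell by 3.55, with 17 of 19 lymphomas below every culture, and lost its call without the libraries above 1% Gm10800.

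In the list of 20 follicular and naive B-cell genes 4 rose (Klf2, Cd55, Bach2 and Btg2) and 3 fell (Cr2, Fcer2a and Satb1), where 5.27% and 8.56% of all genes did. The list's median log2 fold change was 0.34. Without the wt, cr, co or hv culture 3, 1, 2 and 2 rose and 1, 3, 1 and 2 fell. Cr2 (CD21), the complement receptor of mature B cells, stood at 0.0292 to 34.9 TPM in lymphomas (median 3.05), against 141 in the wt, 45.0 in the hv, 17.5 in the cr and 59.2 TPM in the co LPS culture. It was below every LPS culture in 17 of 19 lymphomas, the log2 fold change was -3.65 ± 0.71 (SE, limma adjusted p = 0.00097), and resting cells stood at 379 to 900 TPM. Fcer2a (CD23), the low-affinity IgE receptor, fell by 3.44. Its lymphoma with the highest level, a lung hv tumour, stood at 145 TPM, above every LPS culture, while the median lymphoma stood at 0.467 TPM. The Fcer2a call was lost without the wt or the co culture. The chromatin organiser Satb1 fell by 2.28 and lost its call without the wt, co or hv culture.

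Cholesterol synthesis genes were lower in lymphomas almost throughout. Of 20 tested genes 18 fell and 0 rose (8.56% and 5.27% of all genes), and the median log2 fold change was -1.60. For 15 genes all 19 lymphomas were below all 4 LPS cultures (2.05% of all genes). Hmgcs1, which makes HMG-CoA at the start of the pathway, stood at 7.53 to 40.6 TPM in lymphomas (median 20.3), against 180 in the wt, 118 in the hv, 63.8 in the cr and 127 TPM in the co LPS culture. Idi1, which makes the isoprenoid building block of later steps, stood at 6.70 to 31.5 TPM in lymphomas (median 20.9), against 138 in wt, 127 in hv, 74.1 in cr and 114 TPM in co cultures. The highest lymphoma stayed below the lowest LPS culture in both genes. Their log2 fold changes were -2.49 ± 0.32 and -2.48 ± 0.29 (SE, limma adjusted p = 7.2e-06 and 1.5e-06). Fdps, which makes farnesyl diphosphate, stood at 25.7 to 83.2 TPM in lymphomas (median 44.2), against 417 in wt, 208 in hv, 115 in cr and 239 TPM in co cultures. Insig1, which restrains the pathway, fell too, by 1.499.

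The members of the list that did not pass were Dhcr7 and Srebf2, the gene of the SREBP2 factor that switches the pathway on, at log2 fold changes of -0.62 and -0.49. The whole list summed to 256 to 528 TPM in lymphomas, 793 to 2009 TPM in LPS cultures and 285 to 373 TPM in resting cells. Between 16 and 19 members fell under each of the other 19 settings tried. Within lines, the median log2 difference was -1.61 in hv, -1.11 in cr and -1.46 in co. After rescaling without repeat-like and haemoglobin genes, done within lines after the data were seen, it was -1.62 in hv, -1.45 in cr and -1.46 in co. Among genes outside the list, Fads2, a fatty acid desaturase, was 0 to 2.79 TPM in lymphomas (median 0.649), against 34.999 in wt, 16.7 in hv, 12.1 in cr and 17.9 TPM in co cultures.

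Glycolysis genes were lower too. Of 18 tested genes 14 fell and 0 rose (8.56% and 5.27% of all genes), with a median log2 fold change of -1.48. For 8 genes the groups did not overlap, where 3.34% of all genes showed no overlap in either direction. Aldoa, the aldolase of the middle of the pathway, stood at 72.8 to 541 TPM in lymphomas (median 194), against 1539.8 in the wt, 1040.5 in the hv, 988 in the cr and 1371 TPM in the co LPS culture. Pgk1, the first step that yields ATP, stood at 142 to 391 TPM in lymphomas (median 241), against 1311 in wt, 873 in hv, 830 in cr and 1210 TPM in co cultures. The gap between the groups was wide in both, and the log2 fold changes were -2.52 ± 0.40 and -2.03 ± 0.22 (SE, limma adjusted p = 0.00012 and 5.6e-07). Ldha, which makes lactate, stood at 266 to 1063 TPM in lymphomas (median 576), against 1746 in wt, 1477 in hv, 1265 in cr and 1796 TPM in co cultures. Slc16a3 (MCT4), which exports lactate, fell most, by 3.36, and 18 of 19 lymphomas were below every LPS culture. The glucose transporter Slc2a1 fell by 1.29, whereas Slc2a3, the lactate transporter Slc16a1, Hk1 and Pfkp did not pass.

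The glycolysis list summed to 2502 to 6043 TPM in lymphomas, 8618 to 12691 TPM in LPS cultures and 1318 to 1603 TPM in resting cells. Lymphomas thus lay between the resting and the LPS-treated cells in summed level. Between 13 and 16 members fell under every other setting, and the within-line medians were -1.33 in hv, -1.29 in cr and -1.34 in co. With the same rescaling within lines they were -1.33 in hv, -1.62 in cr and -1.33 in co. Of 14 tested genes linked to hypoxia, 5 fell and 1 rose, where 8.56% and 5.27% of all genes did. The member that rose was Mxi1, whose call was lost without any 1 LPS culture. Without the wt, cr, co or hv culture 4, 3, 4 and 3 fell. Bnip3, a mitophagy receptor and target of hypoxia-inducible factor, stood at 1.31 to 31.3 TPM in lymphomas (median 4.67), against 137 in wt, 53.1 in hv, 63.0 in cr and 106 TPM in co cultures. Egln3, an oxygen-sensing prolyl hydroxylase, fell by 2.60 and Higd1a, a mitochondrial protein of the hypoxia response, by 1.42. Vegfa, Ddit4 and Adm did not pass the test, at -0.41, 0.13 and 0.68.

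**Figure D4:**
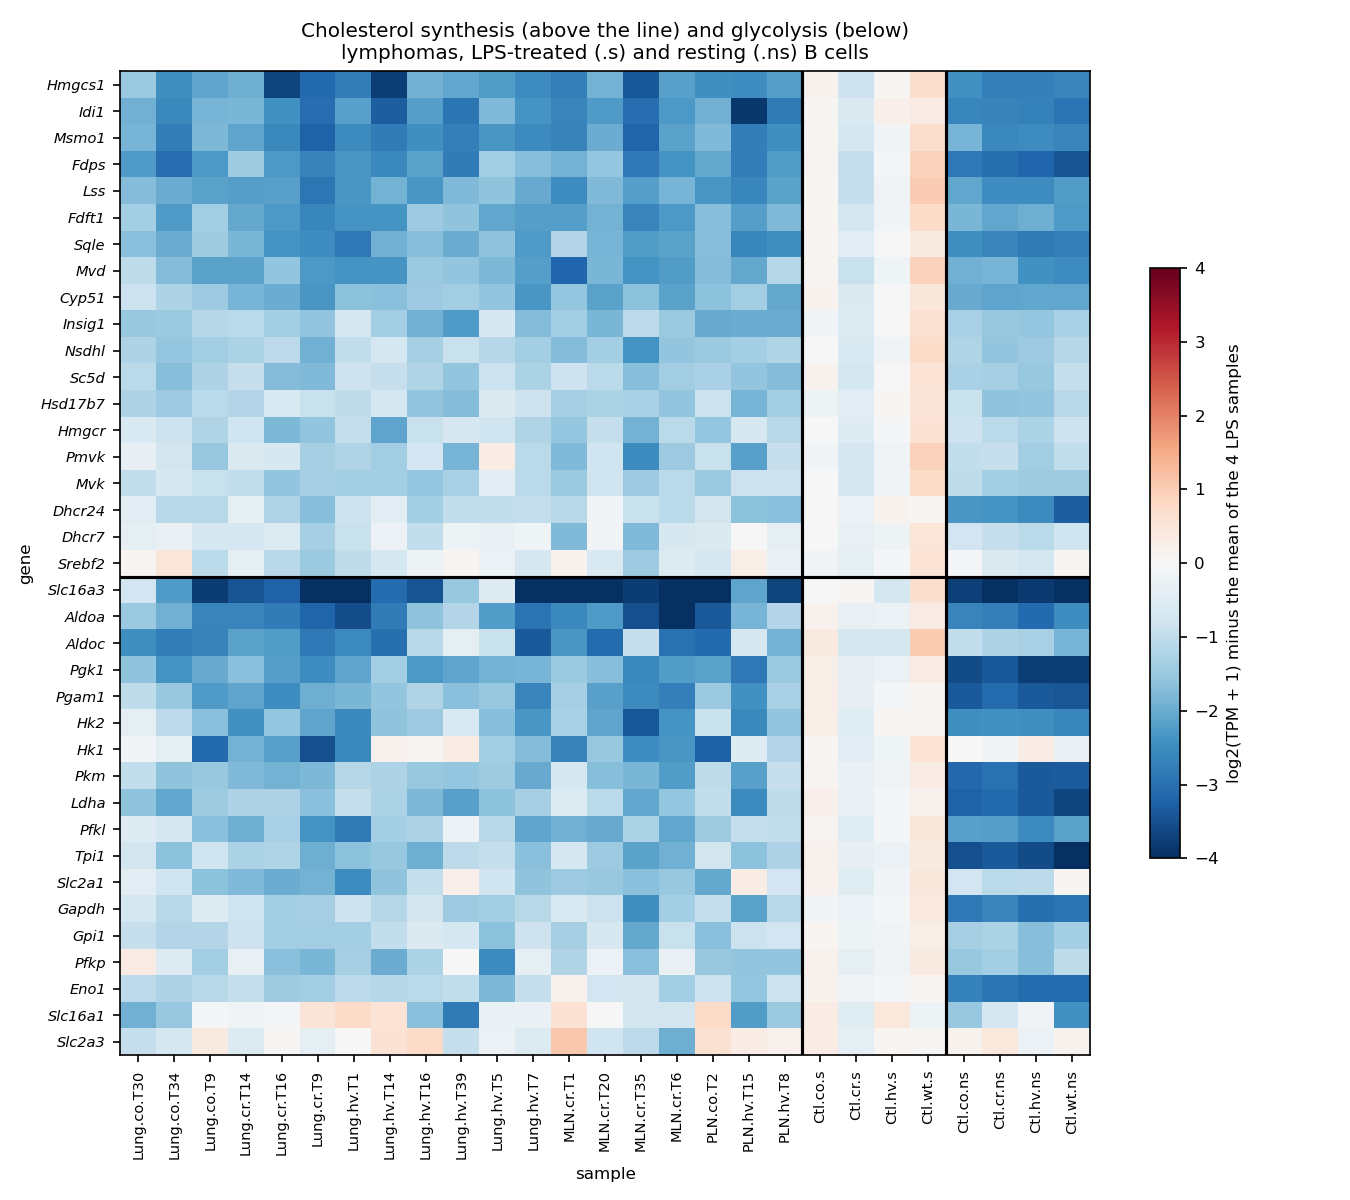
Heat map of 19 cholesterol synthesis genes (above the line) and glycolysis genes (below), as log2(TPM + 1) minus the mean of the 4 LPS cultures, for each lymphoma, LPS-treated (.s) and resting (.ns) library. Most cells of all 19 lymphoma columns are blue (lower than the LPS mean), with Srebf2, Slc16a1 and Slc2a3 near 0.

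Many genes of amino acid supply and targets of the stress factor ATF4 fell. Of 25 tested genes 16 fell and 1 rose (8.56% and 5.27% of all genes), and the median log2 fold change was -1.03. Slc7a3, a transporter of arginine and lysine, stood at 0 to 4.48 TPM in lymphomas (median 0.353), against 25.5 in the wt, 25.3 in the hv, 12.2 in the cr and 25.9 TPM in the co LPS culture. Its log2 fold change was -3.94 ± 0.30 (SE, limma adjusted p = 2.7e-09), and resting cells stood at 0.226 to 0.466 TPM. Asns, which makes asparagine, stood at 0 to 47.8 TPM in lymphomas (median 17.9), against 85.9 in wt, 94.3 in hv, 86.9 in cr and 112 TPM in co cultures, without overlap. The spread of Asns among lymphomas was large, and its call (log2 fold change -2.97, limma adjusted p = 0.0224) was lost without any 1 LPS culture. Trib3 and Chac1, stress-response targets of ATF4, fell by 2.04 and 1.84, and Mthfd2, of mitochondrial one-carbon metabolism, by 1.53. Atf4 itself did not pass (-0.27), and Ddit3 (CHOP) rose by 1.47. The call of Ddit3 was lost without the cr or the hv culture and without the libraries above 1% Gm10800. Without the wt, co or hv culture 10, 11 and 11 members fell, and 14 without cr.

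The number of calls among growth and division genes hung on which LPS cultures were in the fit. Nucleotide and one-carbon genes fell in 17 of 21 (median log2 fold change -0.80), ribosome biogenesis genes in 15 of 30 (-0.55), MYC targets in 13 of 30 (-0.58), G2/M genes in 10 of 30 (-0.63) and S phase genes in 4 of 30 (-0.55), and none of these genes rose. Over all genes 8.56% fell and 5.27% rose. Without the co or the hv culture the counts were 4 of 21, 3 of 30, 4 of 30, 5 of 30 and 1 of 30. Without the wt culture they were 7, 8, 10, 5 and 1, and without the cr culture 17, 15, 11, 9 and 3. Over all genes 648 of 12835 fell without wt, 1067 of 12807 without cr, 534 of 12844 without co and 510 of 12836 without hv. The list medians without co and without hv were -0.74 and -0.75 for nucleotide and one-carbon genes and -0.50 and -0.48 for ribosome biogenesis. They were -0.50 and -0.49 for MYC targets, -0.62 and -0.62 for G2/M genes and -0.53 and -0.52 for S phase genes. Within lines, the median log2 difference of the ribosome biogenesis list was -0.76 in hv, -0.14 in cr and -0.77 in co. After rescaling without repeat-like and haemoglobin genes, a setting applied within lines after the data were seen, these medians were -0.77 in hv, -0.46 in cr and -0.76 in co.

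Among the named members of these lists, Rrm2, Mthfd2, Aurka, Plk1, Orc1, Ldha and Hspe1 kept their call under every setting. Rrm2, the ribonucleotide reductase subunit that limits DNA building blocks, stood at 16.8 to 129 TPM in lymphomas (median 55.8), against 225 in the wt, 199 in the hv, 130 in the cr and 188 TPM in the co LPS culture. Aurka, a mitotic kinase, stood at 7.89 to 29.8 TPM in lymphomas (median 18.3), against 67.1 in wt, 55.0 in hv, 45.5 in cr and 58.7 TPM in co cultures. All lymphomas were below all LPS cultures in both genes. Mki67, a marker of cycling cells, stood at 39.8 to 318 TPM in lymphomas (median 138) and 145 to 202 TPM in LPS cultures, and did not pass (log2 fold change -0.26). The groups overlapped in Mki67: 4 lymphomas were above and 11 below every LPS culture.

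Part of the genes of the secretory pathway, and a few of plasma cell fate, fell in lymphomas. Of 30 ER folding and secretion genes 14 fell and 0 rose (8.56% and 5.27% of all genes), with a median log2 fold change of -0.74. For 11 the groups did not overlap, where 3.34% of all genes showed no overlap in either direction. Manf, a secreted ER stress protein, stood at 44.3 to 152 TPM in lymphomas (median 97.5), against 330 in the wt, 336 in the hv, 263 in the cr and 288 TPM in the co LPS culture. Sdf2l1, an ER chaperone partner, fell by 1.76 and the ER oxidase Ero1l by 1.52. Between 12 and 14 members fell without 1 LPS culture, and 7 fell without the libraries above 1% Gm10800. Prdm1 (Blimp-1), the master regulator of plasma cells, stood at 0.0550 to 7.15 TPM in lymphomas (median 1.69), against 17.1 in wt, 12.8 in hv, 16.4 in cr and 8.40 TPM in co cultures. Every lymphoma was below every culture (log2 fold change -2.44 ± 0.46, SE, limma adjusted p = 0.00074), although the call was lost without the libraries above 1% Gm10800. Xbp1, the factor that builds the secretory machinery, fell by 1.55 and Irf4, which acts upstream of Prdm1, by 1.02; the call of each was lost without the wt or the hv culture, and that of Irf4 also without co.

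The plasma cell list as a whole had 4 falls among 18 tested genes, Ell2 being the fourth, where 8.56% of all genes fell. The count was 1 to 3 without 1 LPS culture and 0 without the libraries above 1% Gm10800. The call of Ell2 was lost without any 1 LPS culture. Jchain, which joins IgM into pentamers, stood at 0 to 116 TPM in lymphomas (median 4.68) and 12.4 to 75.7 TPM in LPS cultures and did not pass (limma adjusted p = 0.209). Batf, an AP-1 family factor needed for class switching in mice, stood at 3.43 to 51.3 TPM in lymphomas (median 17.3), against 227 in wt, 166 in hv, 94.97 in cr and 180 TPM in co cultures, with 12.4 to 15.2 TPM in resting cells. Its log2 fold change was -3.15 ± 0.49 (SE, limma adjusted p = 8e-05).

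NF-kappaB targets, cytokines and interferon-stimulated genes were lower in part. Of 24 NF-kappaB genes 6 fell and 0 rose (8.56% and 5.27% of all genes): Bcl2a1d, Traf1, Bcl2a1b, Cd40, Nfkbia and Nfkbib. Between 2 and 4 fell without 1 LPS culture, 0 fell without the libraries above 1% Gm10800, and the calls of Bcl2a1b and Cd40 were lost without any 1 culture. The subunits Rel, Rela and Nfkb1 stood at log2 fold changes of -0.03, -0.10 and -0.91 and did not pass. Of 17 cytokine genes 6 fell and 0 rose (8.56% and 5.27% of all genes), and 3 or 4 fell without 1 LPS culture. Ccl22, a chemokine for CCR4-bearing T cells, stood at 0 to 1.37 TPM in lymphomas (median 0.102), against 10.7 in the wt, 11.9 in the hv, 11.6 in the cr and 13.005 TPM in the co LPS culture (log2 fold change -3.41 ± 0.20, SE, limma adjusted p = 1.4e-11). The LPS cultures were almost equal in Ccl22 and most lymphomas near 0, and the 4 cultures alone put the gene through the filter. Il10, an inhibitory cytokine of activated B cells, fell by 3.06, but 1 peripheral node hv lymphoma stood at 43.4 TPM, above every LPS culture (12.6 to 29.5 TPM), and the call was lost without any 1 LPS culture.

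Of 25 interferon-stimulated genes 6 fell and 0 rose (8.56% and 5.27% of all genes), with a median log2 fold change of -0.98. Without 1 LPS culture 4 or 5 fell. Isg15, a ubiquitin-like antiviral protein, stood at 0.186 to 8.13 TPM in lymphomas (median 1.56), against 53.3 in the wt, 18.2 in the hv, 16.4 in the cr and 19.4 TPM in the co LPS culture. Oasl1 stood at 0.217 to 4.05 TPM in lymphomas (median 1.66), against 59.4 in wt, 35.8 in hv, 19.7 in cr and 30.6 TPM in co cultures. Both groups were apart in both genes, with log2 fold changes of -3.10 ± 0.47 and -3.75 ± 0.32 (SE, limma adjusted p = 5.9e-05 and 1.2e-08). Ifih1 (MDA5), a sensor of viral RNA, fell by 2.94 and Ifit1 by 2.72, while Irf7 and Mx1 did not pass, at -0.72 and -0.75. Resting cells stood at 26.4 to 185 TPM for Isg15, above every lymphoma.

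Survival genes moved unequally. In the BCL2 family 4 of 17 tested genes fell and 0 rose, where 8.56% and 5.27% of all genes did. Bcl2l1 (BCL-XL), a death inhibitor, stood at 1.85 to 23.9 TPM in lymphomas (median 4.72), against 39.8 in the wt, 25.7 in the hv, 16.8 in the cr and 29.8 TPM in the co LPS culture, and 18 of 19 lymphomas were below every culture (log2 fold change -2.24 ± 0.35, SE, limma adjusted p = 7.7e-05). The related inhibitors Bcl2a1d and Bcl2a1b fell by 4.58 and 3.50; they are near-identical copies, so that reads may be split between them. The death effector Bax fell by 0.90. Bcl2 and Mcl1, other inhibitors of death, did not pass, at -0.74 and 0.39.

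Among single regulators, Myc stood at 78.8 to 362 TPM in lymphomas (median 164), against 55.0 in the wt, 136 in the hv, 155 in the cr and 115 TPM in the co LPS culture. The groups overlapped: 11 of 19 lymphomas were above every culture and the difference did not pass (log2 fold change 0.68 ± 0.34, SE, limma adjusted p = 0.183). In the MYC, MAX and MXD network 4 of 10 tested genes rose and 0 fell (5.27% and 8.56% of all genes): Mxd4, Mnt, Mxd1 and Mxi1, which pair with MAX and oppose MYC at its sites. Mxd4 stood at 12.9 to 137 TPM in lymphomas (median 39.7), against 7.56 in wt, 8.56 in hv, 11.1 in cr and 6.51 TPM in co cultures. It kept its call under every setting, whereas 2 or 3 of the 10 rose without 1 LPS culture. Trp53 stood at 0.192 to 84.5 TPM in lymphomas (median 59.4) and 76.9 to 115 TPM in LPS cultures. It was below every culture in 17 of 19 lymphomas, but with that spread it did not pass (limma adjusted p = 0.268). Of 23 p53 targets 6 fell and 2 rose, where 8.56% and 5.27% of all genes did. Phlda3 fell by 1.81 and Ccng1 by 1.43, while Sesn1, a stress-induced inhibitor of mTORC1 signalling, rose by 1.56. Without any 1 LPS culture 5 fell and 1 rose, and 1 fell without the libraries above 1% Gm10800. Ccnd2, the D cyclin that LPS induces, stood at 0.143 to 43.5 TPM in lymphomas (median 2.61) and 25.4 to 82.1 TPM in LPS cultures, and its fall (log2 fold change -3.17, limma adjusted p = 0.0419) was lost without any 1 LPS culture. Rras2, a Ras-family GTPase, had the most negative fold change of the genes named for their fall without overlap: 0 to 17.6 TPM in lymphomas (median 0.435), against 58.5 in wt, 46.1 in hv, 25.7 in cr and 50.6 TPM in co cultures.

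The stretches before the start sites of all listed members with a RefSeq promoter, whether or not they fell, were searched on both strands for the motifs of factors known to control each list, in 250 bases of RefSeq promoters on GRCm38. The interferon response motif, TTTC repeated after 2 free bases, was in 8 of 22 promoters of interferon-stimulated genes (36.4%) and in 2.98% of all 32851 promoters. The hypoxia-inducible factor core ACGTG was in 11 of 17 promoters of hypoxia-linked genes (64.7%) and 10 of 25 glycolysis promoters (40.0%), against 16.6% of all; it is also part of the MYC E-box CACGTG, found in 13 of 34 promoters of MYC targets (38.2%) and 6.02% of all. The ATF4 motif TGATGNAA was in 4 of 23 promoters of its list (17.4%) and 3.45% of all, the kappaB motif, GGG and TTTCC with 2 free bases between, in 7 of 24 (29.2%) and 1.41% of all, and the sterol element TCACNCCAC in 1 of 17 cholesterol synthesis promoters (5.88%) and 1.05% of all. The promoters at large were not matched for base composition. The factors were taken as known controllers of the lists, so a higher share than over all promoters was likely beforehand. It is no result of the comparison of lymphomas and LPS cultures. Of the members that held a match, the one with the most negative fold change in each of the ATF4, cholesterol, glycolysis and hypoxia lists, and the 2 most negative of the interferon list, are shown as 130 bases on the gene's own strand, with the matches in capitals. Other members that fell also held a match, among them Pgk1, Aldoa, Ldha, Egln3 and Chac1, and are not shown.
Isg15 (chr4:156200819-156200948, minus strand): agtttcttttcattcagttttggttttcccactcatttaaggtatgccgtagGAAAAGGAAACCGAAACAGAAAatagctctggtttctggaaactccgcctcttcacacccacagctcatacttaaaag
Ifit1 (chr19:34640735-34640864, plus strand): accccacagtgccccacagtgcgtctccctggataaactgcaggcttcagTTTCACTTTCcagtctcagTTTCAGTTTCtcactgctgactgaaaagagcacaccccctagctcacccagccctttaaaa
Asns (chr6:7693210-7693339, minus strand): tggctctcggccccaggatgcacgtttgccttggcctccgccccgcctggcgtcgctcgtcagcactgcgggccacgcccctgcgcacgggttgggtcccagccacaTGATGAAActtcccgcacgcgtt
Hmgcs1 (chr13:119690164-119690293, plus strand): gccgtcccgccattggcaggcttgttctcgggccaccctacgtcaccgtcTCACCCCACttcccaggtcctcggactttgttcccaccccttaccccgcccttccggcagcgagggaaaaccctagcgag
Slc16a3 (chr11:120948937-120949066, plus strand): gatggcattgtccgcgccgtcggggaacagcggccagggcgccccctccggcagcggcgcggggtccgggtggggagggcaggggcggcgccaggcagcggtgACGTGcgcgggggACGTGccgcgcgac
Bnip3 (chr7:138909535-138909664, minus strand): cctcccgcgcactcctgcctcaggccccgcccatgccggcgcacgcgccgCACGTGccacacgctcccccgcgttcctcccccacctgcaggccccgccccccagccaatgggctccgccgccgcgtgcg
A match is a description of these letters and shows no binding. Isg15 held 3 overlapping interferon motifs and Ifit1 2, and in Bnip3 the core stood within CACGTG.

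**Figure D5:**
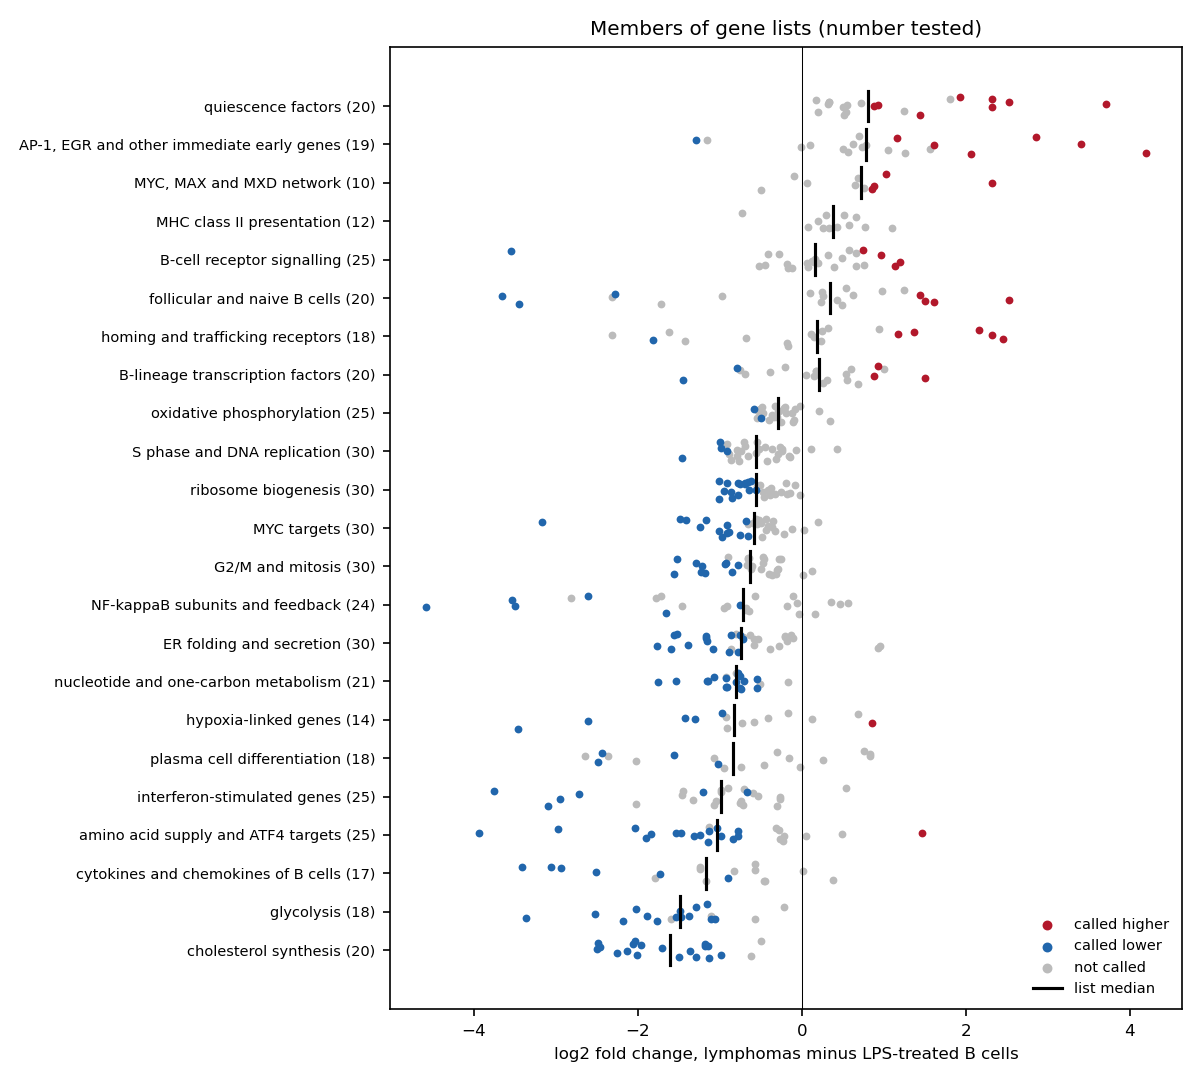
Log2 fold change (lymphomas minus LPS-treated B cells) of each tested member of 23 gene lists, coloured by the limma call, with list medians as bars. Cholesterol synthesis (median -1.60) and glycolysis (-1.48) lie furthest to the left, and quiescence factors (0.80) and immediate early genes (0.78) furthest to the right.

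The lymphomas varied more among themselves than the LPS cultures did. The median SD over tested genes was 0.51 on the log2 scale in lymphomas and 0.27 in LPS cultures, and 11605 genes (90.1%) had the larger SD among lymphomas. By site, 12 lung lymphomas against the LPS cultures gave 2063 calls (993 higher, 1070 lower) and 7 node lymphomas gave 1001 (273 higher, 728 lower). The median log2 fold change of all genes was -0.13 in that fit, and directions there are relative to it. All mesenteric node lymphomas were of the cr line, and the 12 lung and 7 node lymphomas differ in number. Site, line and group size cannot be told apart in these counts. With node lymphomas alone, 18 of 20 cholesterol synthesis genes, 14 of 18 glycolysis genes and 12 of 30 ER folding genes fell. In that fit 7 of 25 amino acid supply genes, 4 of 21 nucleotide and one-carbon genes, 3 of 30 ribosome biogenesis genes and 3 of 30 MYC targets fell. These were fewer calls than with all lymphomas, and over all genes 728 of 11692 fell there. The medians of these 4 lists were -0.86, -0.75, -0.52 and -0.62 with node lymphomas and -1.03, -0.80, -0.55 and -0.58 with all lymphomas. Of the 130 named genes with a call, 62 kept call and direction under all 19 other settings, and none changed direction.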

How the data were processed

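Total RNA of B220-purified mouse cells was sequenced as ribosomal-depleted, stranded paired-end libraries, per the labels' protocols. The deposited table holds TPM per transcript, which the authors made with kallisto 0.43 on mm10/GRCm38, per the submitters' processing notes; for the annotation release and strand setting: not given in the sources used here. TPM keeps no depth, so read pairs were estimated from the steps of low values and carry no interval. The 88198 transcripts were summed to 30735 genes. Genes with a TPM of 1 or more in at least 4 of the 23 libraries were tested with limma 3.58.1 (trend and robust; R 4.3.3) on log2(TPM + 1), with Benjamini-Hochberg adjusted p under 0.05 as the call; fold changes on this scale understate the change of low genes. Immunoglobulin shares were tested by exact two-sided permutation over 8855 relabellings, whose smallest p is 0.000113. "Settings" are the main fit's 19 alternatives of filter, scaling, model and libraries.

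Named genes were the 15 highest and 15 lowest fold changes among called genes without overlap and with a mean of 5 TPM or more in the higher group, the 10 each way with the widest gap, up to 4 called members of each list, and fixed single genes; immunoglobulin segments, predicted genes and pseudogenes were left out. Immunoglobulin V genes and further list members were named after their values were seen. The members and lists were chosen with earlier results of these data known. Sequences came from RefSeq promoters (GRCm38.p6) and GENCODE vM21 transcripts. A few single genes that count in the lists are not reported here by name.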

Additional observations from a re-analysis of the deposited data

Results flagged for a closer look

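Among the 4 LPS cultures, 1 culture stood far from the other 3 for 12 genes among 156 measures examined (147 named genes and 9 immunoglobulin shares) (by the gap to the nearest culture over the whole range), where chance flags about 1 in 20. The cr culture was the one apart for 7 of them: Slc7a3 at 12.24 TPM, Mcm10 at 38.31 TPM, Ccnb1 at 135 TPM, Cyc1 at 88.43 TPM, Ndufs3 at 89.45 TPM, Mthfd2 at 67.16 TPM and Mxd1 at 3.006 TPM. It was below the others for the first 6 and above them for Mxd1. This cr library held 18.6% of its TPM in Gm10800, which lowers the TPM of all its other genes. The part of this in the flags was not tested. The wt culture stood apart for Isg15 at 53.34 TPM, Il21r at 67.19 TPM and Inpp5d at 86.41 TPM, above the others, and for Ccl3 at 8.205 TPM, below them. The co culture stood apart for Ell2, at 20.4 TPM, below the others.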

How the results depend on the processing

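No paired analysis was possible because the replicate numbers follow accession order and name a library only. The count of called genes (1782, with 679 higher and 1103 lower) ranged from 821 to 1392 without 1 LPS culture, with 301 to 455 higher and 510 to 1067 lower. It was 1042 with line as a term (429 and 613), 4143 with a separate spread for each group (1931 and 2212), 1001 with node lymphomas (273 and 728) and 433 without the libraries above 1% Gm10800 (93 and 340). Lymphomas with joined names gave 1033 higher, those with separated names 405 higher, and no filter on low values 1915 lower. The LPS libraries carry another name style, so name style and group cannot be told apart. All 9 lymphomas with joined names came from lung. All 7 node lymphomas had separated names, as did 3 lung lymphomas, so the splits by site and by name style are largely the same. The share of higher calls was 38.1%, and 23.3% without the cr culture, 22.2% with no filter, 48.1% with lung, 27.3% with node and 50.1% with joined-name lymphomas, and 21.5% without the libraries above 1% Gm10800. The Ighm share lost its call with node lymphomas (-32.31) and without those libraries (-28.58). No called named gene reversed. Values that were not called reversed as follows, on the log2 scale: Pax5 to -0.1566 with node lymphomas and -0.1221 without the libraries above 1% Gm10800; Mki67 to 0.2271 with joined names; Ccnd3 to -0.2156 without those libraries; Cdkn2a to -0.2659 with a pseudocount of 0.1 and -0.209 with separated names; Cd59b to 0.08382 with node lymphomas, 0.02668 with separated names and 0.06702 without those libraries. The shares of Ighg1 and Ighg2b reversed to -0.005382 and -0.8919 percentage points with joined names. Without 1 LPS culture, Pax5 ranged from -0.04127 to 0.4082, Ccnd3 from -0.1369 to 0.3473 and Cd59b from -0.2478 to 0.02119. The cause of these changes was not tested. With 4 LPS cultures, 46 of the 130 called named genes lost their call without at least 1 of them. Per kb of effective transcript length, 3 counts came to 0.102 to 0.257 TPM, which limits statements on genes listed near 0.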
